A study of Mus musculus with 15 samples.

Results

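The receptors for glutamate and GABA, the main excitatory and inhibitory transmitters of the brain, are built from subunits encoded by a few gene families. Genes were taken by symbol: the AMPA (Gria), kainate (Grik), NMDA (Grin), delta (Grid) and metabotropic (Grm) glutamate receptor genes, the GABA-A subunits (Gabr with 1 further letter and an optional number) and the GABA-B subunits (Gabbr1 and Gabbr2). This rule found 47 of the 53278 gene symbols counted, and no measured value entered it. Of these, 42 passed the filter on low counts and were tested among 18369 genes.

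The RNA came from the cortex of 15 male C57BL/6J mice aged 10 to 20 weeks, with 1 RNA-sequencing library per mouse and 5 mice per group. The control group ate control food, the PLX group ate food with PLX3397 for 9 days, and the repopulation group ate that food for 9 days followed by control food for 9 days. PLX3397 inhibits CSF1R, the receptor that microglia, the macrophages of the brain, need to survive, so the design asks how cortex differs with microglia depleted and again once they have returned. The samples were whole tissue, in which fewer cells of a type and less RNA per cell cannot be told apart.

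AMPA, kainate and NMDA receptors are ion channels opened by glutamate, each assembled from several subunits. AMPA receptors carry most fast excitation, NMDA receptors admit calcium and take part in synaptic plasticity, and kainate receptors tune transmission on both sides of the synapse. Metabotropic receptors signal through G proteins. GABA-A receptors are chloride channels, most of which combine alpha, beta and gamma subunits, whereas GABA-B receptors are G protein-coupled pairs of Gabbr1 and Gabbr2 products.

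Control libraries held between 24347802 and 48617851 counted reads, PLX libraries between 23413551 and 29482140, and repopulation libraries between 26837517 and 29582274. All 6 microglia markers fell on PLX3397, from a summed level of 254 CPM (reads scaled to the library total, range 239 to 269) to 15.1 CPM (13.5 to 17.2), and stood at 289 CPM (277 to 308) after repopulation. The neuronal markers were present in every library: 7 excitatory markers had summed levels between 1895 and 2133 CPM in control mice, 1754 and 1934 CPM in PLX mice and 1653 and 1921 CPM in repopulation mice, and 7 inhibitory markers between 854 and 932, 836 and 986, and 911 and 1078 CPM. The libraries of control mouse 1 and PLX mouse 2 stood apart with 81.8 and 75.4 CPM over 5 hippocampal markers, against 30.1 to 37.1 CPM in the other 13 libraries. Summed levels of 7 striatal markers were highest in repopulation mouse 5 (1563 CPM), PLX mouse 5 (1393 CPM) and repopulation mouse 2 (1339 CPM), where the other 12 libraries had 843 to 1290 CPM. Those of 5 choroid plexus markers reached 547 CPM in repopulation mouse 4 and 213 CPM in PLX mouse 2, against 8.63 to 15.2 CPM in the other repopulation mice, 13.6 to 111 CPM in the other PLX mice and 8.95 to 24.3 CPM in control mice. Counts of called subunits are given with and without the hippocampal pair and the striatal 3.

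On PLX3397, 13 of the 42 tested subunits rose and 2 fell, and after repopulation 19 were higher and 2 lower than in control. The largest called rise was that of the GABA-A subunit Gabrb2, 34.1% on PLX3397 and 43.5% after repopulation. The subunits that rose in both comparisons with control included Gabrb1, Gabrb2 and Gabrg3 of the GABA-A receptor, the AMPA subunit Gria2, the kainate subunits Grik2 and Grik3 and the metabotropic receptors Grm5, Grm7 and Grm8. The NMDA subunit Grin2c was lower in both. Each call is an adjusted p below 0.05 by the edgeR quasi-likelihood F test, adjusted over all tested genes by the Benjamini-Hochberg method, and both comparisons share the control mice.

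Read against the background of all tested genes, 31.0% of the subunits rose on PLX3397 where 8.19% of all genes did, and 4.76% fell where 8.35% of all genes did. After repopulation against control 45.2% of the subunits were higher, where 13.9% of all genes were, and 4.76% were lower, where 15.2% of all genes were. Between repopulation and PLX3397, 3 subunits (7.14%) were higher and 1 (2.38%) lower, against 7.61% and 8.98% of all genes, so that the share of subunits called higher was near the background. The median subunit differed from control by 0.09 on the log2 scale on PLX3397 and by 0.14 after repopulation, where the medians over all tested genes were -0.0019 and 0.0074. Fold changes were above 0 for 34 of 42 subunits (81.0%) in each comparison with control, and for 49.5% and 51.3% of all genes. Without control mouse 1 and PLX mouse 2, 13 subunits rose and 2 fell on PLX3397, and 18 were higher and 2 lower after repopulation against control. The calls of Gabra4, Gabrg3 and Grik2 on PLX3397 and of Gria4 and Grik1 after repopulation were among those then missed, and Gria1 was called higher in both comparisons and Grin2b on PLX3397. Without PLX mouse 5 and repopulation mice 2 and 5, 11 subunits rose and 2 fell on PLX3397, and 15 were higher and 2 lower after repopulation against control. The calls of Gabra4 and Grik3 on PLX3397 and of Gria4, Grik1 and Grm3 after repopulation were among those then missed.

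These counts changed when trends along exon length and GC content were taken out. The tested subunits had a median exon length of 6600 bases, against 3930 over all tested genes, and 36 of 42 were longer than that all-gene median. Their median GC content was 47.2%, against 49.9%, and 26 of 42 lay below that all-gene median. Over 15030 tested genes with a mean above 1 CPM, sorted into 10 equal bins by exon length, the median log2 fold change on PLX3397 ran from -0.07 in the shortest bin to 0.09 in the longest, and after repopulation from -0.15 to 0.14. In 10 bins by GC content it ran from 0.09 in the lowest to -0.10 in the highest on PLX3397, and from 0.08 to -0.07 after repopulation. When the trends along length and GC content were taken out of the counts, 5 subunits were higher and 1 lower on PLX3397 (all genes, 4.42% and 6.34%), and 7 were higher and 4 lower after repopulation against control (9.82% and 12.2%). Between repopulation and PLX3397, 1 was then higher and 3 lower (6.04% and 7.21%). The median subunit then differed from control by 0.045 on PLX3397 and by 0.06 after repopulation, with 29 and 31 of the 42 fold changes above 0. Calls that held under both ways of counting included Gabrb2, Grik3, Grm7 and Grm8 (higher) and Grin2c (lower) on PLX3397, and Gabrb2, Gabbr2, Grik3, Grm3, Grm7 and Grm8 (higher) and Grin2c and Gabrd (lower) after repopulation. What sets the length and GC trends in these libraries was not tested.

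**Figure D1:**
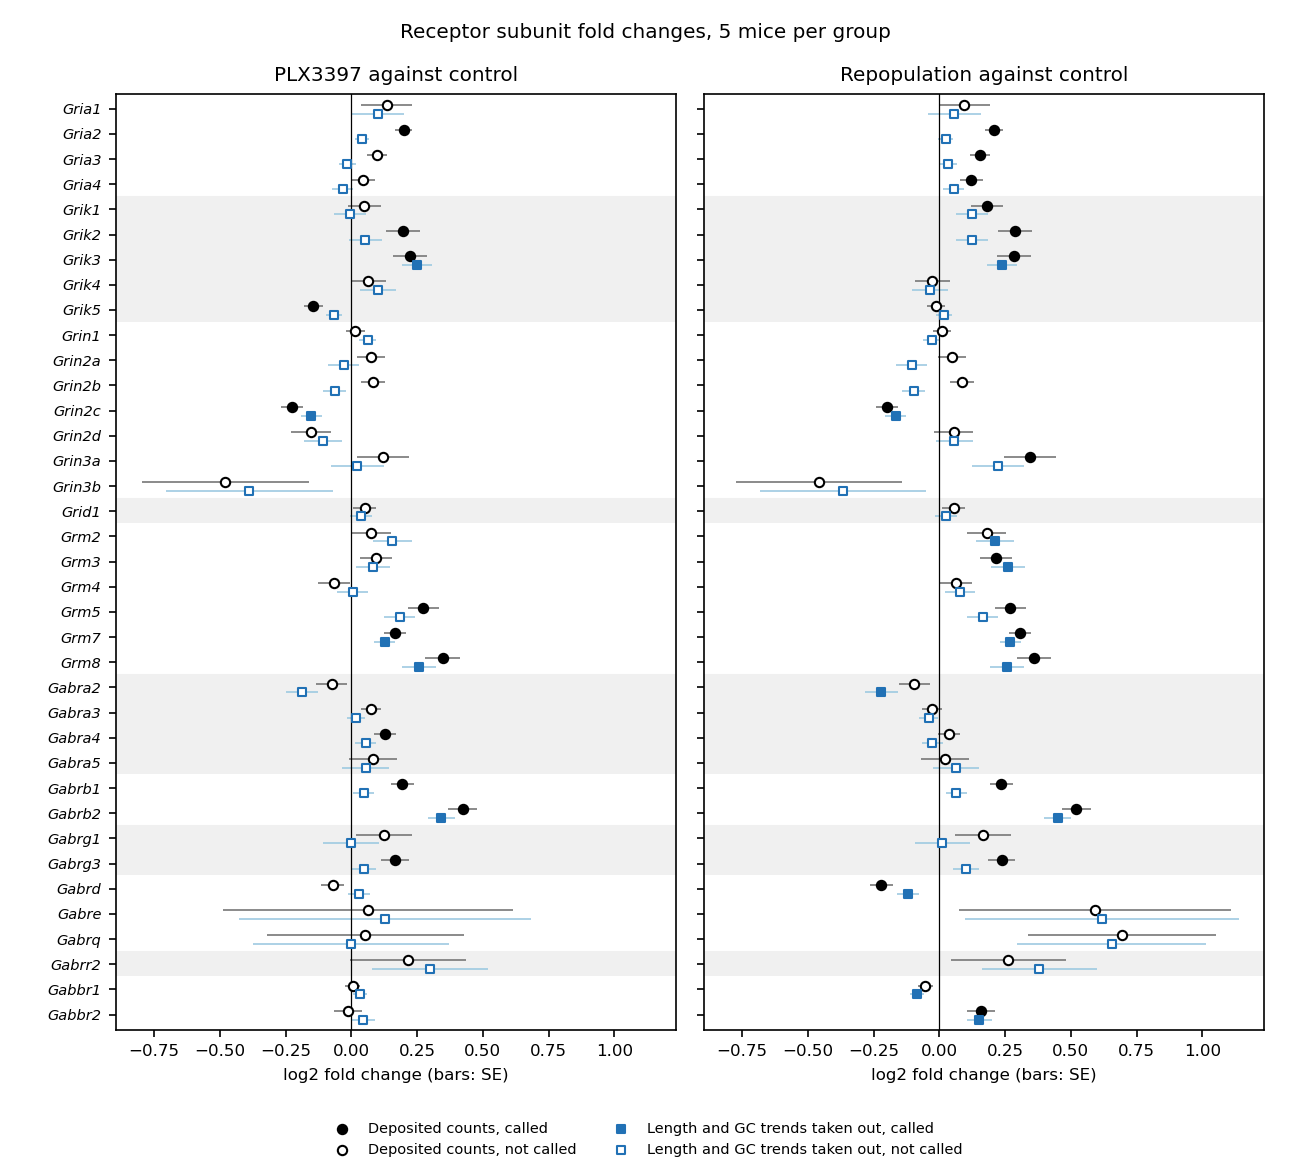
log2 fold changes against control (x axis, bars the standard error) of 37 tested subunits, shaded by family, from the deposited counts (black circles) and with length and GC trends taken out (blue squares). Filled symbols are called at an adjusted p below 0.05. Most circles lie to the right of 0, and many squares lie closer to it, while Gabrb2 stays at 0.34 on PLX3397 and 0.45 after repopulation.

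**Figure D2:**
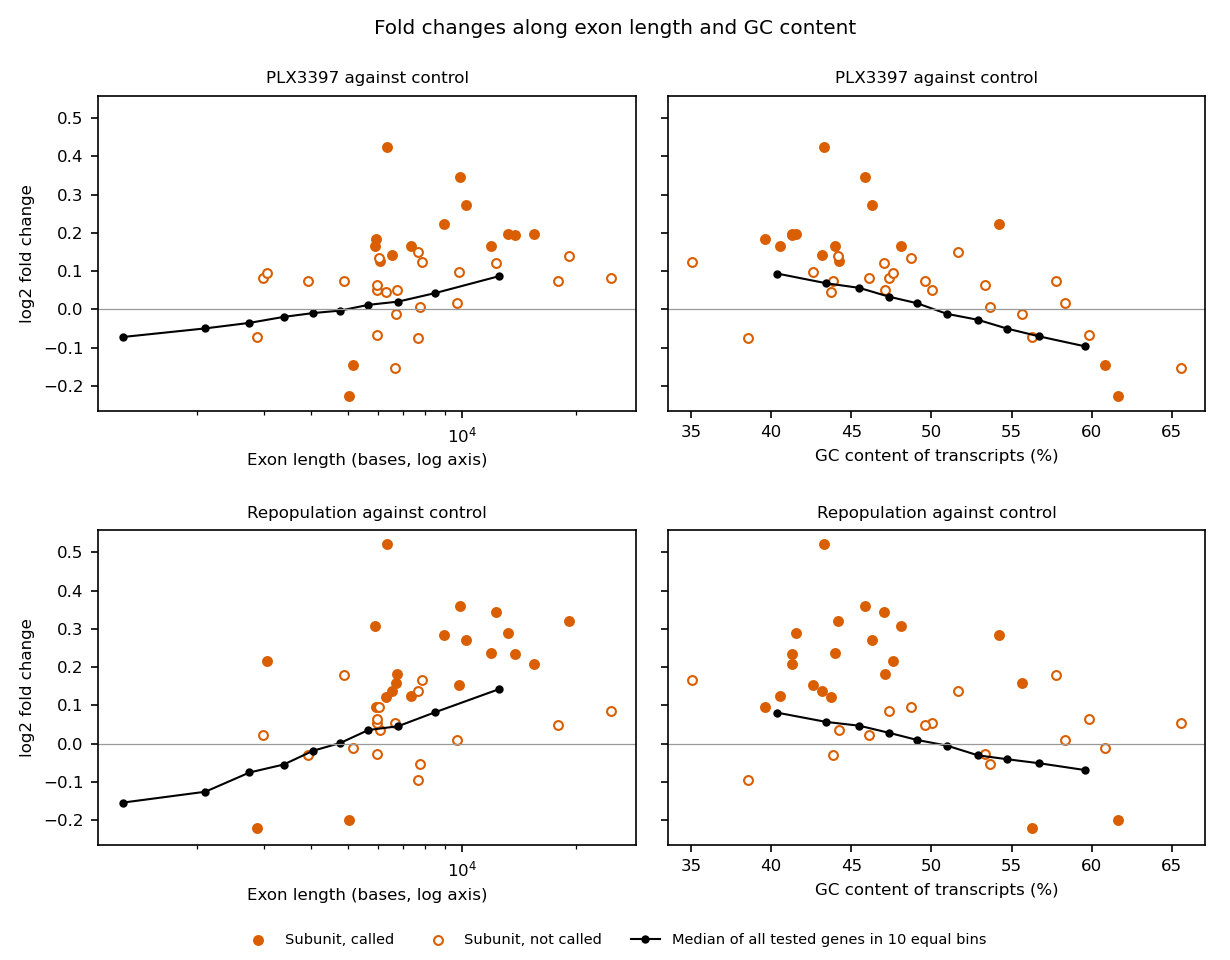
log2 fold change (y axis) against exon length (left, log axis) and transcript GC content (right) for the 38 tested subunits with a control mean of at least 5 CPM (orange, filled where called) and the median of all tested genes above 1 CPM in 10 equal bins (black line). The line rises with length, from -0.07 to 0.09 on PLX3397, and falls with GC content, and most subunits lie in the longer part of the range.

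The region upstream of the transcription start is shown for the leading members, the 2 with the smallest adjusted p among the higher ones after repopulation (Gabrb2 and Grm7) and the lower member with the smallest adjusted p on PLX3397 (Grin2c). Each is the 250 bases before a RefSeq start on GRCm38.p6, free of annotated exons, written 5′ to 3′ on the gene's strand with GC boxes (GGGCGG, or CCGCCC on the other strand, the core site of Sp-family factors) in capitals. For Gabrb2 the window is the first of 3 RefSeq starts, chr11:42420190-42420439 on the plus strand, which lies inside the longer gene span of GENCODE. For Grm7 it is the first of 2 starts, chr6:110645262-110645511 on the plus strand, and for Grin2c chr11:115267244-115267493 on the minus strand. On GRCm38 the genes span 42419757 to 42629028 of chromosome 11 (Gabrb2), 110645581 to 111567230 of chromosome 6 (Grm7) and 115249169 to 115267243 of chromosome 11 (Grin2c), all protein coding.
Gabrb2: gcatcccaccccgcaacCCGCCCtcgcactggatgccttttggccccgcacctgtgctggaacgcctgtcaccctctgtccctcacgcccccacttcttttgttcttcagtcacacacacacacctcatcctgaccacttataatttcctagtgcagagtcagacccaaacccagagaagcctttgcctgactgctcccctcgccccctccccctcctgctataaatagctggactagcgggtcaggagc
Grm7: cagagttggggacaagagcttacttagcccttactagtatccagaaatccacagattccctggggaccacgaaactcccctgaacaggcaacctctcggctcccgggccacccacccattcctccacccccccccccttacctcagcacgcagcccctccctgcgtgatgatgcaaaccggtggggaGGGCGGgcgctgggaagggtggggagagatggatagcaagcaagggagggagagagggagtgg
Grin2c: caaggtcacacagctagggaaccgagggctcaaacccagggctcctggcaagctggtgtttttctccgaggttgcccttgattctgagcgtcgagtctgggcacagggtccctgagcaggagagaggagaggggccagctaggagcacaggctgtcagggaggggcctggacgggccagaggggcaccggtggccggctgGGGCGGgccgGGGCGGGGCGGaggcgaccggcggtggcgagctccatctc

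The Gabrb2 and Grm7 windows each hold 1 GC box and that of Grin2c holds 3, of which the last pair share 1 base. A window was found for 32 of the 47 members, and 17 of these 32 had a GC box, against 35.4% of 27025 genes with a window. Member windows also had a higher median GC content, 58.8% against 52.4%. The CRE motif TGACGTCA, bound by CREB, was found in 0 of 32 members and 1.77% of all genes, and the E-box CACGTG in 1 of 32 and 6.86%. These matches describe letters in the window and were not tested as binding sites.

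Levels within control cortex were compared per kilobase of exon, since longer transcripts collect more reads. Exon length here is that of all annotated exons of a gene merged over its transcripts, whichever of these the cortex expresses. The order of genes, and the shares and ratios per kilobase below, depend on this length. Before division by it Gria2 stood above Gria1, at 798 against 412 CPM. The GABA-B subunit Gabbr1 was the highest at 108 CPM per kilobase, above all other members in every mouse. Among those that followed were the AMPA subunit Gria1 at 68.2, Gabbr2 at 64.1, the obligatory NMDA subunit Grin1 at 53.7, the kainate subunit Grik5 at 52.5 and Gria2 at 51.4 CPM per kilobase. The ranges over mice of Gria1 and Gabbr2 overlapped, as did those of Grin1, Grik5 and Gria2. Along the whole order of 47 genes, 12 of 46 pairs of neighbours had ranges that did not overlap. Gabrb2, at 21.6 CPM per kilobase, stood next to Grm5 (22.5) and Grm3 (21.03), with overlapping ranges. Among the tested members Gabre, Grin3b, Gabrq and Gabrr2 were the lowest, at 0.0791, 0.171, 0.295 and 0.339 CPM per kilobase.

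The 5 members that were not tested were Gabra6, Gabrp, Gabrr1, Gabrr3 and Grm6, with 0 to 7 reads in each library. Gabra6 is known from cerebellar granule cells, Gabrr1 and Grm6 from the retina.

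**Figure D3:**
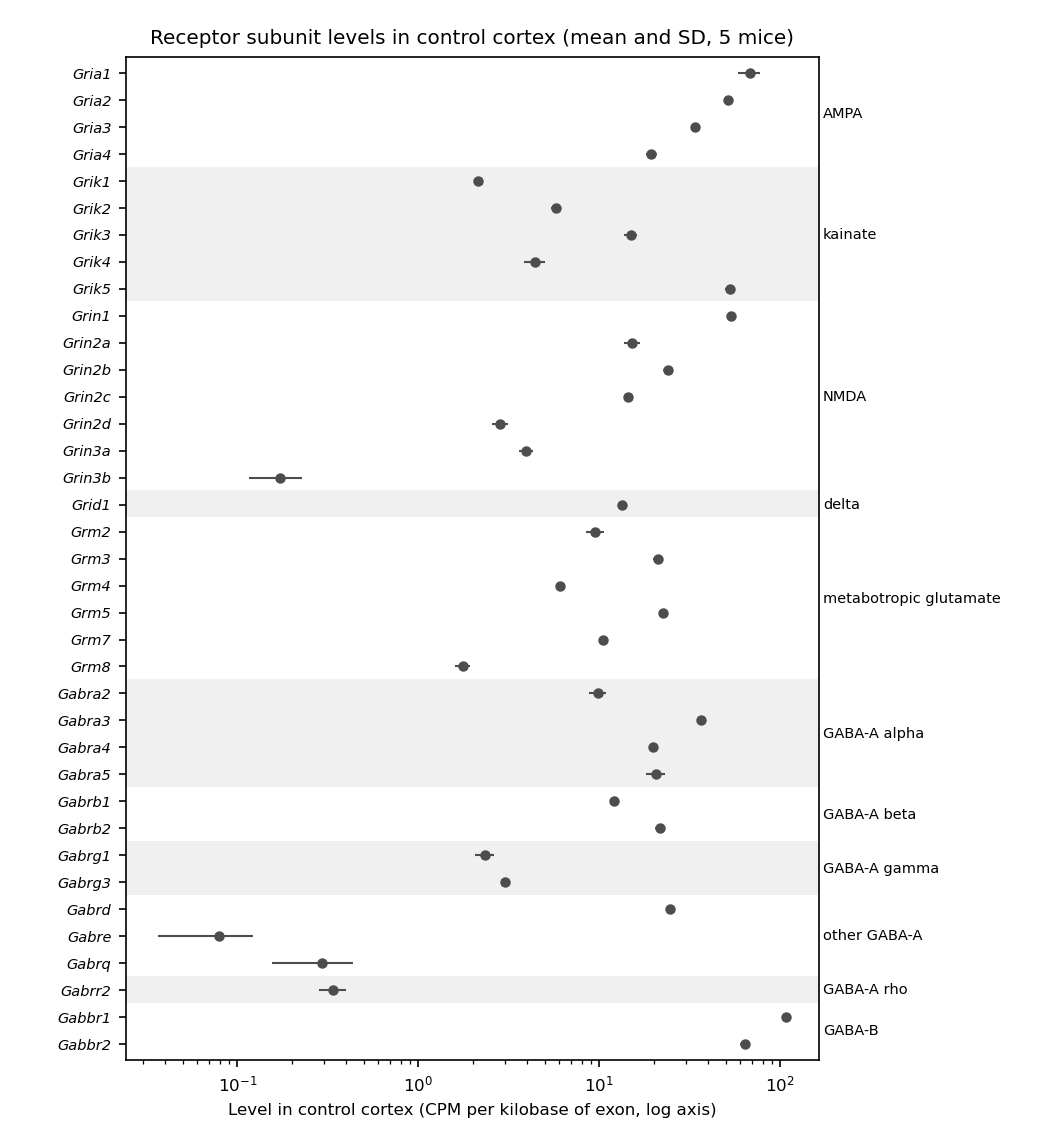
Level of 37 tested subunits in control cortex (x axis, CPM per kilobase of exon, log axis) by family, as the mean of 5 mice with the SD. Gabbr1 is highest at 108, and Gabre, Grin3b, Gabrq and Gabrr2 lie below 1.

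Among the AMPA receptor subunits, which form the channel pore, Gria2 rose. Gria2 encodes GluA2, the subunit that makes the channel impermeable to calcium. Its level was 811, 799, 759, 818 and 805 CPM in the 5 control mice, 848, 921, 936, 921 and 956 CPM on PLX3397 and 921, 949, 929, 882 and 928 CPM after repopulation. Every treated and repopulated mouse was above every control mouse, by 0.20 ± 0.034 (SE) on the log2 scale (adjusted p = 0.000152) on PLX3397 and 0.21 ± 0.034 (SE) on the log2 scale (adjusted p = 5.12e-05) after repopulation. With the length and GC trends taken out the difference was 0.04 (adjusted p = 0.39) and 0.02 (adjusted p = 0.599); its exons are 15548 bases long, with 41.3% GC. Gria3 and Gria4 were called after repopulation alone, at 0.15 (adjusted p = 0.00309) and 0.12 (adjusted p = 0.0391), and neither was called with the trends taken out. The Gria4 call was also missed without control mouse 1, 3 or 5 or repopulation mouse 1, 2, 3 or 4, with an adjusted p of up to 0.166.

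Gria1, which encodes GluA1, was not called. Its 5 control libraries had 511, 384, 415, 384 and 369 CPM, those on PLX3397 405, 543, 415, 421 and 480.1 CPM and those after repopulation 417, 449, 452, 427 and 458 CPM. Its highest values, 511 and 543 CPM, were those of control mouse 1 and PLX mouse 2, the libraries with the highest hippocampal markers. Without that pair the fold change of Gria1 was 0.15 on PLX3397 (adjusted p = 0.0379) and 0.18 after repopulation (adjusted p = 0.0049), against 0.13 and 0.09 with all libraries. The same pair had the highest Gabra5, a GABA-A subunit known for its high level in hippocampus, at 74.7 and 81.0 CPM where the other 13 libraries had 56.4 to 65.9 CPM. The part of the hippocampal RNA in other results was not tested beyond leaving these libraries out.

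The summed level of the AMPA genes per kilobase was 173 ± 8.0 (SD, n = 5) in control, 190 ± 10.1 on PLX3397 and 191 ± 4.5 CPM per kilobase after repopulation. The share of each gene in that sum differed little: Gria1 held 39.4%, 39.4% and 38.2%, and Gria2 29.8%, 31.1% and 31.1%, with overlapping ranges.

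The kainate subunits went in different directions on PLX3397. Grik5, which encodes the high-affinity subunit GluK5 that needs a partner from Grik1 to Grik3 to form a channel, fell on PLX3397 and was higher again after repopulation. It measured 280.3, 288, 259, 275 and 256 CPM in control, 244, 249, 238, 243 and 254 CPM on PLX3397 and 274, 256, 271, 277 and 268 CPM after repopulation. All 5 PLX values were below all values of both other groups, and the repopulation values overlapped the controls. The difference was -0.14 ± 0.035 (SE) on the log2 scale (adjusted p = 0.00522) on PLX3397 against control and 0.13 ± 0.035 (SE) on the log2 scale (adjusted p = 0.00984) from PLX3397 to repopulation. Taking out the length and GC trends left -0.07 (adjusted p = 0.165) and 0.09 (adjusted p = 0.0606), neither called. After repopulation the difference from control was -0.01 (adjusted p = 0.837). Grik5 was the only one of the 42 tested subunits with non-overlapping values between PLX3397 and repopulation. The share of all tested genes with such values was not counted, so this is not read as a trait of Grik5.

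Grik3 encodes GluK3, a partner of GluK5, and had 134 ± 11 CPM (SD, n = 5) in control mice, 156 ± 16 CPM in PLX mice and 163 ± 4.1 CPM in repopulation mice. It rose at 0.22 (adjusted p = 0.025) and 0.28 (adjusted p = 0.00314), and it was called in both comparisons with the trends taken out (0.25, adjusted p = 0.0091, and 0.24, adjusted p = 0.0063). The call on PLX3397 rested on single libraries, with an adjusted p of up to 0.0752 without PLX mouse 5, and was also missed without control mouse 1 or 3 or PLX mouse 3 or 4. Grik2 was higher at 0.20 (adjusted p = 0.0432) and 0.29 (adjusted p = 0.00212), and Grik1 after repopulation at 0.18 (adjusted p = 0.0301), all 3 lost with the trends taken out. The highest Grik2 levels, 99.3, 100.2 and 103.9 CPM, were those of PLX mouse 5 and repopulation mice 2 and 5, which also had the highest striatal markers. Without these libraries Grik2 was higher at 0.15 (adjusted p = 0.043) and 0.19 (adjusted p = 0.0087), and the PLX call of Grik3 was missed (0.21, adjusted p = 0.111). The PLX call of Grik2 was missed without any one of 7 libraries (control 2, 4 and 5, PLX 2, 3 and 5, repopulation 3), and the Grik1 call without any one of 7 (control 1, 3 and 5, repopulation 2 to 5). Grik4 was not called in any comparison with all libraries, with means of 26.4, 27.7 and 26.03 CPM. Control mouse 1 had 32.5 CPM, where the other controls had 23.7 to 26.1 CPM. Without that mouse Grik4 was called higher on PLX3397 (0.16, adjusted p = 0.0432). Without control mouse 1 and PLX mouse 2 it was not called there (0.13, adjusted p = 0.0953). As a share of the kainate genes per kilobase, Grik5 held 65.8% in control mice (range 64.8 to 66.8), 60.6% in PLX mice (59.9 to 62.8) and 62.0% in repopulation mice (60.9 to 63.0), with ranges that did not overlap the control range. This share was not tested.

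Of the 7 tested NMDA subunits, Grin2c was called in both comparisons with control, as lower. Grin2c encodes GluN2C, best known from cerebellar granule cells and found in cortex in astrocytes and some neurons. Its level was 79.5, 74.1, 72.7, 68.9 and 70.1 CPM in control, 64.3, 63.4, 61.7, 64.3 and 58.5 CPM on PLX3397 and 60.4, 64.5, 64.7, 63.9 and 64.6 CPM after repopulation. Both later groups lay wholly below the controls, at -0.23 ± 0.042 (SE) on the log2 scale (adjusted p = 0.000392) and -0.20 ± 0.042 (SE) on the log2 scale (adjusted p = 0.000658), and overlapped each other. The call held with the length and GC trends taken out, at -0.15 (adjusted p = 0.0153) and -0.17 (adjusted p = 0.0042). Over the same groups the 6 astrocyte markers summed to 1532 CPM (1441 to 1615), 1645 CPM (1569 to 1714) and 1416 CPM (1374 to 1451); on PLX3397, 1 of the 6 rose and 0 fell, and after repopulation 2 of the 6 were lower than in control. Their part in the Grin2c result was not tested.

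Grin1, Grin2a and Grin2b, the subunits of the main cortical NMDA receptors, were not called in either comparison with control. Grin1 had means of 520.5, 526 and 524 CPM, Grin2a 274, 288 and 283 CPM, and Grin2b 596, 631 and 633 CPM in control, on PLX3397 and after repopulation. The ratio of Grin2a to Grin2b per kilobase, which is known to increase as the cortex matures, was 0.635 ± 0.027 (SD, n = 5), 0.633 ± 0.035 and 0.621 ± 0.036. Grin3a, the glycine-binding GluN3A subunit, was higher after repopulation at 0.34 (adjusted p = 0.0162), with 48.4 ± 4.1 CPM (SD, n = 5) in control and 61.5 ± 4.9 CPM after repopulation, and was not called with the trends taken out (adjusted p = 0.131). Grin2d, at 17.1 to 19.7 CPM, and Grin3b, at 0.406 to 0.564 CPM over the group means, were not called. From PLX3397 to repopulation Grin2d differed by 0.21 (adjusted p = 0.0606). It was called higher with no filter on low counts (adjusted p = 0.0244) and without the 3 libraries high in striatal markers (adjusted p = 0.0252). The same held without control mouse 1, PLX mouse 5 or repopulation mouse 2 (adjusted p = 0.0494, 0.035 and 0.0231). With the trends taken out Grin2d was not called (0.16, adjusted p = 0.146). Counts of Grin3b, Grin1 and Grin2d are uncertain, since 32.1%, 13.5% and 9.66% of their exon bases overlap a gene on the other strand and the use of strand in counting is not given in the sources used here.

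Grid1, a delta gene, which encodes a synapse-organising relative of the ionotropic receptors, had means of 79.98, 82.9 and 83.03 CPM and was not called.

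Of the 7 tested metabotropic receptors, 3 rose on PLX3397 and 4 were higher after repopulation than in control, and 0 fell. These are 7 genes, and of all tested genes 8.19% rose on PLX3397 and 13.9% were higher after repopulation. Grm5, Grm7 and Grm8 rose in both comparisons. Grm7, a presynaptic group III receptor that restrains transmitter release, had 59.5, 59.4, 61.3, 63.4 and 63.1 CPM in control, 64.99, 70.5, 67.5, 64.95 and 75.8 CPM on PLX3397 and 74.1, 77.5, 73.96, 75.2 and 78.3 CPM after repopulation. Both groups lay above the controls, at 0.16 ± 0.042 (SE) on the log2 scale (adjusted p = 0.00797) on PLX3397 and 0.31 ± 0.042 (SE) on the log2 scale (adjusted p = 8.67e-06) after repopulation. It was also higher after repopulation than on PLX3397, at 0.14 ± 0.042 (SE) on the log2 scale (adjusted p = 0.0204), with ranges that overlapped at PLX mouse 5. That last call was missed without PLX mouse 1 or 4 or repopulation mouse 2 or 5, with an adjusted p of up to 0.0715. All 3 calls of Grm7 held with the trends taken out (0.13, adjusted p = 0.0474; 0.27, adjusted p = 5.4e-05; 0.14, adjusted p = 0.0188).

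Grm8, the other group III receptor called, measured 14.99, 17.3, 17.5, 17.4 and 19.7 CPM in control, 23.03, 19.2, 22.5, 24.3 and 20.9 CPM on PLX3397 and 22.5, 22.2, 22.1, 21.7 and 22.4 CPM after repopulation. PLX mouse 2 (19.2 CPM) lay just within the control range, set by control mouse 5 (19.7 CPM), and all other PLX and repopulation mice lay above it. The rise was 0.35 ± 0.066 (SE) on the log2 scale (adjusted p = 0.000577) and 0.36 ± 0.066 (SE) on the log2 scale (adjusted p = 0.000185), and with the trends taken out 0.26 in both (adjusted p = 0.0099 and 0.0054).

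Grm5, a group I receptor coupled to phospholipase C, had 242, 219, 237, 234 and 219.8 CPM in control, 259, 284, 262, 269 and 319 CPM on PLX3397 and 269, 299, 269, 250.2 and 303 CPM after repopulation. No PLX or repopulation value fell within the control range. The rise was 0.27 ± 0.059 (SE) on the log2 scale (adjusted p = 0.0036) and 0.27 ± 0.059 (SE) on the log2 scale (adjusted p = 0.00197), and it missed the threshold with the trends taken out (0.18, adjusted p = 0.0547, and 0.16, adjusted p = 0.0536). Its highest levels, 319, 303 and 299 CPM, were those of PLX mouse 5 and repopulation mice 5 and 2, the libraries with the highest striatal markers. Leaving these out, Grm5 was higher at 0.22 (adjusted p = 0.000414) and 0.19 (adjusted p = 0.0025). The part of striatal RNA in other results was not tested beyond leaving these libraries out. Grm3, a group II receptor present on astrocytes and neurons, was higher after repopulation at 0.22 (adjusted p = 0.00979), and still so with the trends taken out (0.26, adjusted p = 0.0069), but not without PLX mouse 5 and repopulation mice 2 and 5 (0.16, adjusted p = 0.0862). Grm2 and Grm4 were not called, with mean CPM of 46.5, 48.8 and 52.5 for Grm2, and 36.4, 34.7 and 37.9 for Grm4. For Grm2 the difference after repopulation from control was 0.18 (adjusted p = 0.0811), and it was called with the trends taken out (0.21, adjusted p = 0.0447), with no filter on low counts (0.18, adjusted p = 0.0033), without repopulation mouse 2 (0.21, adjusted p = 0.0491) and without all 3 libraries high in striatal markers (0.26, adjusted p = 0.0216). Without control mouse 1, whose 37.7 CPM lay below the 46.6 to 50.8 CPM of the other controls, Grm2 was not called (adjusted p = 0.21). Without control mouse 1 and PLX mouse 2 the difference was 0.10 (adjusted p = 0.195), also not called. Counts of Grm2 are uncertain, as an antisense gene overlaps 9.6% of its exon bases. The summed level of the family was 79.4 ± 1.9 (SD, n = 5), 88.4 ± 4.3 and 92.7 ± 4.1 CPM per kilobase, and the control range (76.9 to 81.2) lay below both others. This sum was taken from all libraries with the length and GC trends left in, and it was not tested.

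**Figure D4:**
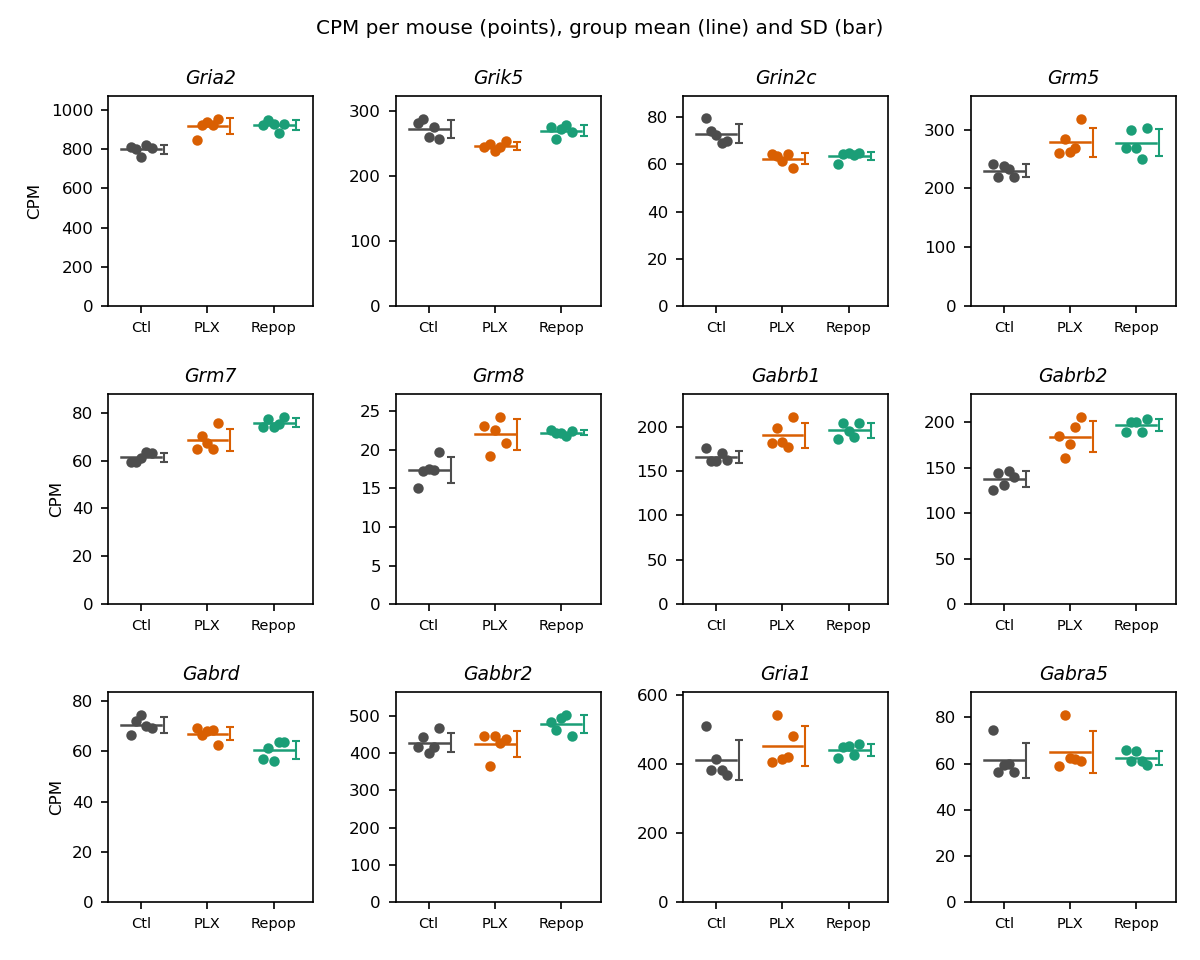
CPM per mouse (points), group mean (line) and SD (bar at the right) in control (Ctl), PLX3397 (PLX) and repopulation (Repop) mice for 10 members given in full and for Gria1 and Gabra5. In Gabrb2 the PLX values (160 to 206) and repopulation values (189 to 204) lie above the controls (125 to 146). In Gria1 and Gabra5 the high points are control mouse 1 and PLX mouse 2.

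Beta subunits form the GABA binding site of the GABA-A receptor together with alpha subunits, and Gabrb1 and Gabrb2 rose in both comparisons with control. Gabrb2 encodes the beta subunit of the most abundant GABA-A receptor of the adult brain. Its level was 125, 144, 131, 146 and 140.0 CPM in control, 184, 160.2, 176, 194 and 206 CPM on PLX3397 and 189.5, 201, 201, 189 and 204 CPM after repopulation. The lowest PLX value lay above the highest control value, and the repopulation values fell within the PLX range. The rise was 0.42 ± 0.055 (SE) on the log2 scale (adjusted p = 1.77e-05) and 0.52 ± 0.055 (SE) on the log2 scale (adjusted p = 2.3e-06), the smallest adjusted p of all members in both comparisons. An exact two-sided permutation test of the CPM gave p = 0.00794 for both, the smallest that the 252 splits of 5 against 5 mice allow. With the trends taken out the rise was 0.34 (adjusted p = 0.000184) and 0.45 (adjusted p = 1.5e-05). From PLX3397 to repopulation Gabrb2 differed by 0.10 (adjusted p = 0.262) and was not called.

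Gabrb1 had 176, 161, 162, 170.4 and 162 CPM in control, 182, 198, 183, 177 and 211 CPM on PLX3397 and 187, 205, 195, 189 and 204 CPM after repopulation. It was higher at 0.19 ± 0.043 (SE) on the log2 scale (adjusted p = 0.00269) and 0.24 ± 0.043 (SE) on the log2 scale (adjusted p = 0.000203), without overlap with the controls. With the trends taken out Gabrb1 was not called (0.05 and 0.07).

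Alpha subunits set the kinetics and drug response of the receptor. Gabra4, found mostly in receptors outside synapses, rose on PLX3397 at 0.13 (adjusted p = 0.0371), lost with the trends taken out. It was also missed without control mouse 1 or 5 or PLX mouse 3, 4 or 5, with an adjusted p of up to 0.111. Gabra2, Gabra3 and Gabra5 were not called, with means of 70.1 to 74.8, 141 to 152 and 61.3 to 65.1 CPM. With the trends taken out Gabra2 was lower after repopulation than in control (-0.22, adjusted p = 0.015), where the counts as deposited gave -0.10 (adjusted p = 0.251). Its highest level, 88.4 CPM, was that of control mouse 1, against 66.1 to 76.2 CPM in all other libraries. Without control mouse 1 and PLX mouse 2 the counts as deposited gave -0.03 (adjusted p = 0.677). From PLX3397 to repopulation Gabra3 differed by -0.10 (adjusted p = 0.0566). It was called lower by DESeq2 (adjusted p = 0.0463), without control mouse 1 (adjusted p = 0.0392), without PLX mouse 2 (adjusted p = 0.0189) and without both (-0.13, adjusted p = 0.0115). It was not called with the trends taken out (-0.06, adjusted p = 0.32) or without PLX mouse 5 and repopulation mice 2 and 5 (-0.06, adjusted p = 0.37). Without repopulation mouse 5, which had its lowest level (133 CPM), the adjusted p was 0.161.

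Gamma subunits take part in placing receptors at synapses. Gabrg3 rose at 0.17 (adjusted p = 0.0291) and 0.24 (adjusted p = 0.00106), both lost with the trends taken out, and the PLX call was missed without control mouse 1 or 5 or PLX mouse 3 or 5. Gabrg1, at 18.4, 20.1 and 20.7 CPM, was not called.

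Gabrd encodes the delta subunit of receptors that lie outside synapses and mediate tonic inhibition, and it was lower after repopulation. Its values were 66.3, 72.2, 74.5, 69.9 and 69.3 CPM in control, 69.1, 66.5, 68.1, 68.6 and 62.7 CPM on PLX3397 and 57.2, 61.4, 56.2, 63.7 and 63.7 CPM after repopulation. All 5 repopulation values lay below all controls, and the PLX values lay between, overlapping both. The difference was -0.22 ± 0.044 (SE) on the log2 scale (adjusted p = 0.000418) from control and -0.15 ± 0.044 (SE) on the log2 scale (adjusted p = 0.0201) from PLX3397, while PLX3397 against control was not called (-0.07, adjusted p = 0.294). With the trends taken out it was -0.12 (adjusted p = 0.0373) and -0.15 (adjusted p = 0.0159). The call against control was missed when a replicate block was added to that fit. In the deposited counts the call against PLX3397 was missed without PLX mouse 4 or repopulation mouse 1 or 3, with an adjusted p of up to 0.0735. Gabre, Gabrq and Gabrr2, at means of 0.375 to 2.57 CPM, were not called.

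Several GABA-A genes lie in clusters. On chromosome 5 (GRCm38, 70751047 to 72149037) Gabrb1 rose in both comparisons and Gabra4 on PLX3397. Gabrg1 (0.12 and 0.17) and Gabra2 (-0.07 and -0.10) were not called on PLX3397 or after repopulation, and differences between neighbours were not tested. The first exons of Gabra4 and Gabrb1 lie head to head and overlap by 46 bases. On chromosome X (72255999 to 72842602) none of Gabre, Gabra3 and Gabrq was called.

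Of the 7 inhibitory neuron markers, 3 fell and 0 rose on PLX3397, and 2 were higher and 3 lower after repopulation than in control. These are 7 genes, and of all tested genes 8.35% fell on PLX3397, and 13.9% were higher and 15.2% lower after repopulation. With the trends taken out, 2 markers were lower and 0 higher in each comparison with control. The 2 higher after repopulation in the deposited counts were Gad1 (0.16, adjusted p = 0.0038) and Gad2 (0.37, adjusted p = 0.0371). Those that were lower in both were Pvalb (-0.32, adjusted p = 0.0013, and -0.53, adjusted p = 3.75e-06), Sst (-0.18, adjusted p = 0.0043, and -0.16, adjusted p = 0.0046) and Vip (-0.24, adjusted p = 0.0336, and -0.30, adjusted p = 0.0051), which mark separate classes of interneuron. The part of these changes in the GABA receptor results was not tested. After repopulation Gad2 was highest in mice 5 and 2, at 310 and 265 CPM, where the other repopulation mice had 207 to 225 CPM. Gad1 was highest in the same mice, at 455 and 434 CPM against 397 to 415 CPM. Their libraries were among those with the highest striatal markers, and the part of striatal RNA in the Gad1 and Gad2 calls was not tested.

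GABA-B receptors work as pairs, with Gabbr1 binding GABA and Gabbr2 coupling to G proteins. Gabbr2 was higher after repopulation than in both other groups. It had 416, 442, 400.1, 417 and 466 CPM in control, 445, 366, 446, 426 and 439 CPM on PLX3397 and 485, 462, 495, 503 and 445 CPM after repopulation. The ranges overlapped, at control mouse 5 and at the highest PLX values. The difference was 0.16 ± 0.052 (SE) on the log2 scale (adjusted p = 0.0265) from control and 0.17 ± 0.052 (SE) on the log2 scale (adjusted p = 0.0282) from PLX3397, and with the trends taken out 0.15 (adjusted p = 0.0242) and 0.11 (adjusted p = 0.14). Both calls were missed when single libraries were left out, the first without control mouse 1, 3 or 4 or repopulation mouse 1, 3 or 4 (adjusted p up to 0.0831), the second without PLX mouse 2 or 4 or repopulation mouse 1, 3 or 4 (up to 0.074). Without control mouse 1 and PLX mouse 2 the second was also not called (adjusted p = 0.0526). Gabbr1 was not called, at 837, 840.3 and 806 CPM, but with the trends taken out it was lower after repopulation than in control (-0.09, adjusted p = 0.0183) and on PLX3397 (-0.12, adjusted p = 0.0025). The ratio of Gabbr1 to Gabbr2 per kilobase was 1.69 ± 0.11 (SD, n = 5), 1.71 ± 0.17 and 1.46 ± 0.10.

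The further genes of these pathways were taken from 4 lists of 11 to 18 genes, so that each count below is small. Among all tested genes 8.19% rose and 8.35% fell on PLX3397, 7.61% rose and 8.98% fell from PLX3397 to repopulation, and 13.9% were higher and 15.2% lower after repopulation than in control, and the counts are read against these shares.

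Of 14 auxiliary subunits of AMPA and kainate receptors, 3 rose and 1 fell on PLX3397, 1 rose from PLX3397 to repopulation, and 3 were higher and 2 lower after repopulation than in control; the medians were -0.0001, -0.03 and -0.05. Cacng4, a TARP that traffics AMPA receptors, fell on PLX3397 by 0.59 on the log2 scale (adjusted p = 0.0012), from 57.3 to 38.1 CPM, and rose to 54.8 CPM after repopulation (0.52, adjusted p = 0.0027). Both calls held with the trends taken out (adjusted p = 0.005 and 0.0042). Of 7 markers of oligodendrocyte precursors, 6 fell on PLX3397 and 5 rose from PLX3397 to repopulation. Their summed level was 191 CPM (174 to 214) in control, 107 CPM (77.96 to 129) on PLX3397 and 188 CPM (179 to 194) after repopulation; their part in the Cacng4 result was not tested. Neto1, an auxiliary subunit of kainate receptors, rose at 0.20 (adjusted p = 0.0015) and 0.21 (adjusted p = 0.000366) in the comparisons with control, and neither call held with the trends taken out (0.09, adjusted p = 0.193, and 0.09, adjusted p = 0.124). Frrs1l, which takes part in AMPA receptor assembly, rose at 0.15 (adjusted p = 0.0045) and 0.12 (adjusted p = 0.0112), and these calls were lost as well (0.06, adjusted p = 0.19, and 0.04, adjusted p = 0.337). Shisa9 rose on PLX3397 at 0.13 (adjusted p = 0.0311), and at 0.16 with the trends taken out (adjusted p = 0.0089). It was higher after repopulation at 0.13 (adjusted p = 0.0192), and at 0.13 with the trends taken out (adjusted p = 0.0179). In that fit 1 rose and 1 fell on PLX3397, 1 rose and 0 fell from PLX3397 to repopulation, and 2 were higher and 0 lower after repopulation than in control.

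Of 18 scaffold genes of glutamate synapses, 4 rose and 2 fell on PLX3397, and 4 were higher and 1 lower after repopulation than in control (medians -0.05 and 0.02). The falls on PLX3397 were Dlgap3 (by 0.19 on the log2 scale, adjusted p = 0.000658) and Shank1 (by 0.19, adjusted p = 0.0076), both of the postsynaptic density. Both falls held with the trends taken out (adjusted p = 0.0082 and 0.0249). Dlg1 rose at 0.13 (adjusted p = 0.017), and stood at 0.02 with the trends taken out (adjusted p = 0.752). Dlgap2, Grip1 and Dlg2 were higher after repopulation at 0.20 (adjusted p = 0.000325), 0.24 (adjusted p = 0.00048) and 0.16 (adjusted p = 0.000766). They were also higher on PLX3397, at 0.13 (adjusted p = 0.0211), 0.17 (adjusted p = 0.0199) and 0.10 (adjusted p = 0.0386). With the trends taken out, Dlgap2 and Grip1 held after repopulation (adjusted p = 0.000233 and 0.0069) and on PLX3397 (adjusted p = 0.00056 and 0.0427). Dlg2 then stood at -0.01 after repopulation (adjusted p = 0.775) and -0.05 on PLX3397 (adjusted p = 0.283). From PLX3397 to repopulation Shank3 alone of the 18 was called (0.10, adjusted p = 0.0381), and it was not called with the trends taken out (0.03, adjusted p = 0.456). Without the length and GC trends 2 rose and 2 fell on PLX3397, 0 rose and 1 fell from PLX3397 to repopulation, and 2 were higher and 4 lower after repopulation than in control.

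Of 11 auxiliary and scaffold genes of GABA receptors, 3 rose and 2 fell on PLX3397, 4 rose and 2 fell from PLX3397 to repopulation, and 3 were higher and 1 lower after repopulation than in control (medians -0.03, 0.05 and 0.03). Gphn, which encodes the scaffold gephyrin, rose on PLX3397 at 0.15 (adjusted p = 0.007). Kctd12 and Kctd16 encode auxiliary subunits of GABA-B receptors. Kctd12 fell by 0.44 on PLX3397 (adjusted p = 0.0178). Kctd16 rose on PLX3397 at 0.33 (adjusted p = 0.0237) and was higher after repopulation at 0.52 (adjusted p = 0.000349). Gabarap, a receptor trafficking and autophagy protein, was lower after repopulation at -0.36 (adjusted p = 6.4e-05), and Gphn was higher at 0.13 (adjusted p = 0.0094). From PLX3397 to repopulation Nlgn2, the adhesion protein of inhibitory synapses, rose at 0.13 (adjusted p = 0.0091), Kctd12b rose at 0.36 (adjusted p = 0.0347) and Gabarap fell by 0.20 (adjusted p = 0.0217). After removal of the trends 2 rose and 1 fell on PLX3397, 1 rose and 1 fell from PLX3397 to repopulation, and 2 were higher and 1 lower after repopulation than in control. The calls named here that were then lost were, from PLX3397 to repopulation, those of Nlgn2 (0.07, adjusted p = 0.128) and Gabarap (-0.13, adjusted p = 0.0894), while that of Kctd12b held (adjusted p = 0.0401).

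Of 17 genes of transmitter synthesis and uptake, 3 rose and 1 fell on PLX3397, 1 rose and 2 fell from PLX3397 to repopulation, and 7 were higher and 3 lower after repopulation than in control (medians 0.03, 0.01 and 0.05). On PLX3397 Slc12a2, a chloride importer, and Abat, which degrades GABA, rose at 0.21 (adjusted p = 0.0013) and 0.18 (adjusted p = 0.0113), and Slc17a7, the vesicular glutamate transporter of cortical neurons, fell by 0.13 (adjusted p = 0.0186). After repopulation Slc12a2 was higher than in control at 0.21 (adjusted p = 0.000616) and Slc17a7 lower at -0.18 (adjusted p = 0.0011). Glul, the glutamine synthetase of astrocytes, was lower after repopulation by 0.31 against control (adjusted p = 1.3e-05) and by 0.24 against PLX3397 (adjusted p = 0.0003). Slc6a11, a GABA transporter of astrocytes, rose from PLX3397 to repopulation at 0.24 (adjusted p = 0.0034), and Slc1a1, a neuronal glutamate transporter, fell by 0.14 (adjusted p = 0.0092). Taking out the trends, 0 rose and 2 fell on PLX3397, 1 rose and 2 fell from PLX3397 to repopulation, and 2 were higher and 5 lower after repopulation than in control. The calls of Slc12a2 were then lost (0.08, adjusted p = 0.195, and 0.07, adjusted p = 0.234), as were those of Abat (0.15, adjusted p = 0.0541) and Slc17a7 (-0.06, adjusted p = 0.286) on PLX3397. Those of Slc17a7 after repopulation (adjusted p = 0.002), Glul (adjusted p = 0.000172 and 0.0012), Slc6a11 (adjusted p = 0.0149) and Slc1a1 (adjusted p = 0.0022) held. Of the 6 astrocyte markers given above, 4 fell and 0 rose from PLX3397 to repopulation, where 8.98% of all tested genes fell and 7.61% rose. Glul went the same way as these markers in that comparison, and Slc6a11 went the opposite way. The part of astrocyte RNA in the Glul and Slc6a11 results was not tested.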

How the data were processed

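RNA was sequenced from the cortex of 15 mice. The authors deposited raw read counts per gene, as whole numbers. The submitters' processing notes name STAR, FastQC, MultiQC, DESeq, DESeq2 and the mm10 genome, without roles. Which program counted the reads, on which annotation and with what strand setting, is not given in the sources used here.

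All 15 libraries entered 1 fit in edgeR 4.0.16 (R 4.3.3): filterByExpr, TMM factors, quasi-likelihood F tests (robust dispersion) and Benjamini-Hochberg adjustment over 18369 genes, with a threshold of 0.05. CPM use the TMM-scaled totals, and the totals limit mainly members under 1 CPM. Each library came from 1 mouse, and no libraries held identical values. GENCODE M21 (GRCm38), which held all 47 members, gave positions, exon lengths and GC content, and RefSeq (GRCm38.p6) gave promoters.

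Length and GC trends were taken out as offsets: natural splines with 4 degrees of freedom, fitted for each library and centred so that the median gene kept its TMM scaling. The scripts were tested on simulated counts. The alternatives were DESeq2 1.42.0, its size factors in edgeR, no filter, only the 2 groups compared, a replicate block, the trends taken out with and without that block, and each library left out. Leaving out control mouse 1 and PLX mouse 2 together, or PLX mouse 5 and repopulation mice 2 and 5, was chosen after seeing the data.

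The members and lists were chosen with earlier results of these data known. The 8 called members with the smallest adjusted p in each comparison stand in full, as do Gria1 and Gabra5, chosen after their values were seen, and in each pathway list the 3 called genes with the smallest adjusted p per comparison are named, with Shank3 as the only call of its comparison. A few of these genes are left out of the text and figures.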

Additional observations from a re-analysis of the deposited data

Results flagged for a closer look

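In 7 of 126 groups of 5 mice, 1 library lay far from the other 4 of its group by Dixon's test. Chance flags about 1 group in 20. Gabra5 was high at 74.7 CPM in control mouse 1, where the other controls had 56.4 to 59.6 CPM, and at 81.0 CPM in PLX mouse 2, where the others had 58.8 to 62.6 CPM. Grik4 was high in control mouse 1 at 32.5 CPM against 23.7 to 26.1 CPM. Gabbr2 was low in PLX mouse 2 at 366 CPM against 426 to 446 CPM. These 4 values came from the pair of libraries with the highest hippocampal markers. The other 3 were Gabra3 in repopulation mouse 5 (133 CPM against 142 to 145 CPM), Gabrg3 in repopulation mouse 5 (48.3 CPM against 40.6 to 41.6 CPM) and Grin2c in repopulation mouse 1 (60.4 CPM against 63.9 to 64.7 CPM).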

How the results depend on the processing

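Of the 40 calls over the 3 comparisons, DESeq2 and its size factors in edgeR kept 40, no filter 38, only the 2 groups compared 39, a replicate block 38, the length and GC trends taken out 16 (with 5 others gained) and these trends taken out with the replicate block 15. No called fold change turned its sign under any of these, nor with any library left out. With the trends taken out, the subunits higher on PLX3397 went from 13 to 5 and the lower from 2 to 1, those higher and lower after repopulation against control from 19 to 7 and from 2 to 4, and those higher and lower against PLX3397 from 3 to 1 and from 1 to 3. With the replicate block as well, these numbers were 5 and 1, 7 and 3, and 1 and 2. DESeq2 called 3 subunits lower from PLX3397 to repopulation, and leaving out control mouse 1 and PLX mouse 2 gave 2; without PLX mouse 5 and repopulation mice 2 and 5, 4 were higher and 1 lower there, and 33 of the 40 calls held. With any 1 library left out, 9 to 14 subunits rose and 2 fell on PLX3397, 14 to 20 were higher and 2 lower after repopulation against control, and 1 to 7 were higher (7 without PLX mouse 5, 1 without PLX mouse 4) and 0 to 3 lower against PLX3397 (3 without control mouse 1, 0 without PLX mouse 4 or repopulation mouse 1 or 3). The replicate block alone gave 12 higher and 2 lower on PLX3397, 19 and 2 after repopulation against control, and 3 and 1 against PLX3397. The labels give the mice numbers. Over 15 pairs of same-numbered libraries the deviations from the group means correlated at -0.13 to 0.10, which gave no sign that the numbers pair the mice. Such correlations cannot exclude a pairing. Other than for the length and GC trends, which remove signal shared with length or GC by construction, the cause of these changes was not tested.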
